A study of Mus musculus with 6 samples.

Results

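The genes described here encode the nuclear-encoded subunits of respiratory complexes II, III and IV and of ATP synthase, also called complex V. They were taken by name, and all 42 were found among the 49652 genes of the count files: 4 in complex II, 9 in complex III, 13 in complex IV and 16 in ATP synthase, its inhibitor Atpif1 included. Bulk RNA-seq was available from muscle stem cells, which lie along muscle fibres and regenerate them after injury, in 3 KO and 3 WT libraries. Both groups came from mice of the Opa1 / Pax7-CreERT2 design aged 8 to 10 weeks. KO animals were Cre positive and WT animals Cre negative, and animals of both groups received tamoxifen by gavage for 5 days and gave cells 3 days afterwards. Cells were sorted from uninjured hindlimb muscle for alpha-7 integrin and VCAM and against Sca1, CD45 and CD31. The Pax7 promoter limits the recombinase to Pax7-expressing cells. No Cre-positive control was used, so the effects of Cre and of Opa1 loss cannot be told apart. The labels do not say how many animals a library holds, so p-values measure the spread between these libraries, which may be partly technical.

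Complexes II, III and IV pass electrons from succinate and ubiquinol to oxygen, complexes III and IV pump protons while they do so, and ATP synthase lets the protons flow back to make ATP. Complex II is built from nuclear genes alone, whereas complexes III and IV and ATP synthase each also hold subunits made from mitochondrial DNA. The complexes sit in the cristae, the folds of the inner mitochondrial membrane, and rows of ATP synthase dimers line the cristae edges. OPA1, a GTPase related to dynamin, fuses inner membranes and keeps cristae tight. Quiescent muscle stem cells are small cells with few mitochondria, and their mitochondrial content grows when they leave quiescence.

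Between 41410136 and 56591699 reads were counted in genes in KO libraries and between 48329905 and 56606886 in WT libraries. Opa1 itself, on chromosome 16 from 29579334 to 29654884 (plus strand, GRCm38), had 17.5, 34.4 and 27.1 CPM (counts scaled to the size of the library) in KO replicates 1 to 3, against 68.2, 31.4 and 68.8 CPM in WT replicates 1 to 3. The second WT value fell within the span of the KO libraries, unlike the other WT values. That sample is therefore referred to as the library labelled WT replicate 2. The counts cover the whole gene and do not show recombination, so they cannot settle whether its label is right. For Opa1 the log2 fold change, KO minus WT, was -1.09 (SE 0.37), with an unadjusted p of 0.0215 and an adjusted p of 0.99998 in edgeR's quasi-likelihood test. The markers of muscle stem cells summed to 6824 to 8848 CPM in KO libraries, against 7235 to 10914 CPM in WT libraries. Chodl alone gave 2449 to 3983 CPM of these sums in KO libraries and 2506 to 5869 CPM in WT libraries. Its highest value was in WT replicate 3, which also had the highest sum. Leukocyte markers summed to 6.28 to 17.2 CPM in KO libraries and 6.61 to 18.9 CPM in WT libraries, with Ptprc, which encodes CD45, at 0 in some libraries. Fibro-adipogenic markers summed to 1139, 1382 and 1504.7 CPM in KO replicates 1 to 3. In WT replicates 1 to 3 they summed to 1505.3, 1549 and 1989 CPM. Each KO sum lay below each WT sum, but the highest KO and lowest WT sums were almost equal. KO and WT libraries overlapped in each of the 8 genes, with 4 log2 fold changes negative and 4 positive. Dpt and Cd34 made up most of these sums. Dpt had 713 ± 101 CPM in KO and 979 ± 217 CPM in WT (SD, n = 3 each). Cd34 had 532 ± 84.6 CPM in KO and 589 ± 78.7 CPM in WT (SD, n = 3 each). Which cells the Cd34 reads came from was not tested. The part of the marker lists in the results was not tested.

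The mRNA levels of the 42 subunits differed little, on average, between KO and WT cells. Together they took 1.18%, 0.920% and 0.915% of all gene counts in KO replicates 1 to 3, against 1.13%, 0.971% and 1.05% in WT replicates 1 to 3. The means were 1.01% ± 0.152 in KO and 1.05% ± 0.0800 in WT (SD, n = 3 each), a difference smaller than either SD. Log2 fold changes, KO minus WT, ran from -0.19 for Uqcrh to 0.08 for Atp5g2, with a median of -0.06, beside a median of 0.01 over the 18832 genes tested. In bulk samples, fewer cells of a type and less RNA per cell cannot be told apart.

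All 42 genes passed the filter on low counts. edgeR's quasi-likelihood test, with Benjamini-Hochberg adjustment over all 18832 genes, called 0 of the 42 at an adjusted p under 0.05, beside 0% of all genes tested. The adjusted p was 0.99998 for each of them. At an unadjusted p under 0.05 there were also 0 of the 42, beside 2.09% of all genes tested, and the smallest unadjusted p was 0.248, for Cox4i1. DESeq2 called 0 of the 42, beside 0.106% of all genes (20 genes), and limma voom called 0, beside 0%. KO and WT libraries overlapped in each of the 42, whereas the groups did not overlap in 6.55% of all genes tested.

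Most of the small differences pointed the same way: 32 of the 42 log2 fold changes were negative and 10 positive, beside 49% negative over all genes tested. With other scalings, filters and tests between 34 and 39 were negative, because 7 members with positive values near 0 changed sign. The direction of this tilt hung on single libraries. Without KO replicate 1 the fold changes were negative in 40 of the 42, with a median of -0.20. Without KO replicate 3 they were negative in 15 and positive in 27, with a median of 0.01, and without WT replicate 1 they were negative in 20 and positive in 22, with a median of 0.0057. Without the library labelled WT replicate 2 they were negative in 37, with a median of -0.11, and 0 members were called in any of these fits. By complex, the median moved most without KO replicate 1, to -0.18 in complex II, -0.18 in complex III, -0.19 in complex IV and -0.23 in ATP synthase. It turned positive without KO replicate 3 in each, at 0.02 in complex II, 0.0087 in complex III, 0.02 in complex IV and 0.01 in ATP synthase, and without WT replicate 1 in complex II (0.06) and ATP synthase (0.01).

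The intervals state how large a difference the 6 libraries leave room for. The 95% interval of the log2 fold change included 0 for each of the 42 genes. In 41 of the 42 the whole interval lay within a 2-fold change in either direction, and in 36 within 1.5-fold. The exception at 2-fold was Cox7a1, with an interval from -1.11 to 1.14, which had between 60 and 157 reads per library. Standard errors were 0.12 to 0.48 with a median of 0.18, beside a median of 0.38 over all genes tested, many of which have lower counts.

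**Figure D1:**
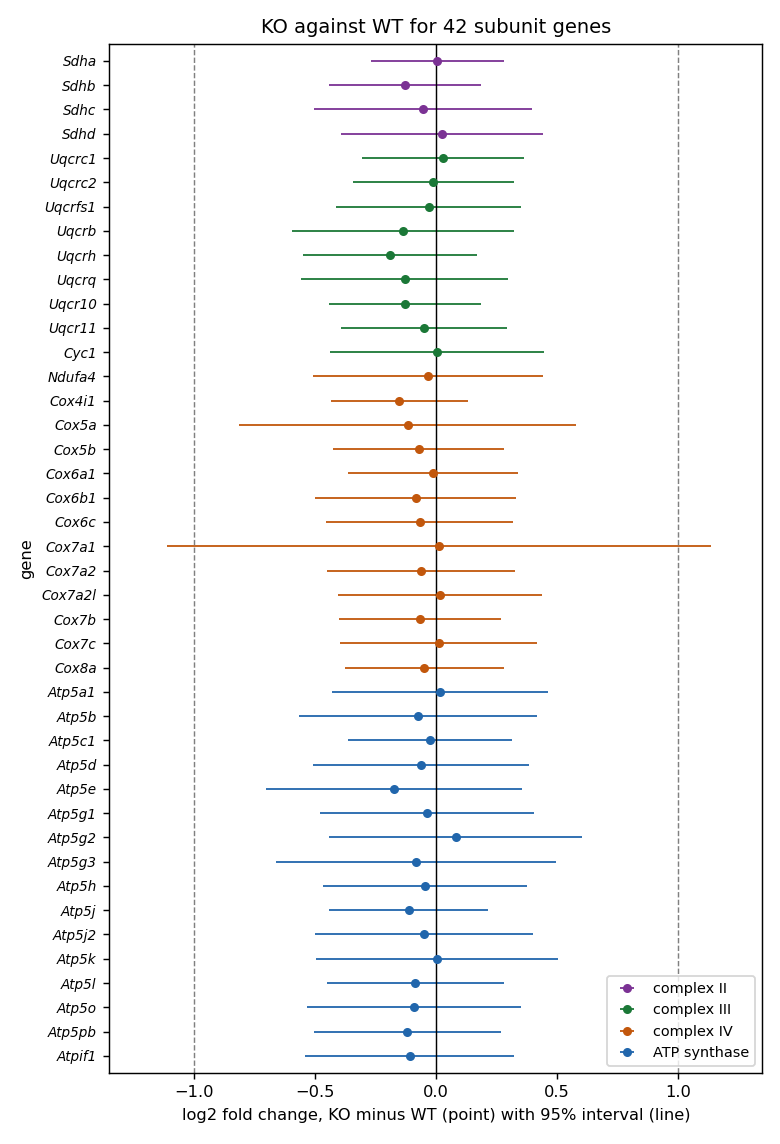
Log2 fold change (KO minus WT, horizontal axis) of each of the 42 subunit genes from edgeR, with its 95% interval as a line and colours for the complexes. Dashed lines mark a 2-fold change. Each interval crosses 0, and Cox7a1 has the widest.

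Promoter sequences of some members are shown as regulatory context, and no match was related to the expression values. NRF1 and GABPA (the DNA-binding part of NRF2/GABP) are transcription factors long known to bind promoters of respiratory chain genes. RefSeq promoter windows on GRCm38.p6, from 250 bases before to 50 after a gene's start, were found for 34 of the 42 members (37 windows). The NRF1 spelling, GCGC followed by A, any base and GCGC again, on either strand, was present in 11 of the 37 windows (29.7%), beside 4.60% of 32851 windows of all genes. The stricter spelling with T as the free base, a subset of these, was in 4 windows (10.8%), beside 0.971%. The GABPA spelling CCGGAAG was in 12 windows (32.4%), beside 8.86%, and 19 windows (51.4%) held 1 or both, beside 12.6%. The YY1 spelling AAGATGGC was in 3 windows (8.11%), beside 2.75%, and the SP1 spelling GGGCGG in 12 (32.4%), beside 35.7%. The median GC content was 56.3% in members' windows and 52.7% in all windows. The spellings were settled after matches had been seen, and a match is a description of letters, not a site. The windows below are 1 member of each complex with an NRF1 match, then the muscle and general isoforms of subunit 7a, which have neither match. Each is written 5′ to 3′ on the gene's strand, and capitals mark matches to NRF1 (that spelling or its reverse complement) and GABPA (CCGGAAG or CTTCCGG).
Sdhd, chr9:50603800-50604099, minus strand: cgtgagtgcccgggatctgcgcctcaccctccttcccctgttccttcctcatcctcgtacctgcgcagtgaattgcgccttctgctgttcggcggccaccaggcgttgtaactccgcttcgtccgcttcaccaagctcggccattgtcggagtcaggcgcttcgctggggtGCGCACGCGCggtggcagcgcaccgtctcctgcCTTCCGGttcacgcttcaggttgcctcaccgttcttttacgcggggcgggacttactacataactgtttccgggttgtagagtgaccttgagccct
Uqcrc1, chr9:108936398-108936697, plus strand: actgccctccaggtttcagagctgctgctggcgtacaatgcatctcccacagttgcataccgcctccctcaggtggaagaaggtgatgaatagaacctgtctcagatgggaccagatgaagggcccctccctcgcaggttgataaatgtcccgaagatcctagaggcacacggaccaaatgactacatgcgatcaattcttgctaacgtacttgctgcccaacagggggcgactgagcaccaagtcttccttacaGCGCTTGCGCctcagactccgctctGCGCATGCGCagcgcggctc
Cox6a1, chr5:115348909-115349208, minus strand: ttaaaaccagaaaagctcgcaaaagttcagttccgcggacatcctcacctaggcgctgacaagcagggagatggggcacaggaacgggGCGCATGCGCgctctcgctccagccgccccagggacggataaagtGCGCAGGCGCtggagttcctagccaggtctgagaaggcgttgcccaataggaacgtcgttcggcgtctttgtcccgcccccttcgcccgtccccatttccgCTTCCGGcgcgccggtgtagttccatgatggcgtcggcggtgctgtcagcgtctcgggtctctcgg
Atp5h, chr11:115419870-115420169, minus strand: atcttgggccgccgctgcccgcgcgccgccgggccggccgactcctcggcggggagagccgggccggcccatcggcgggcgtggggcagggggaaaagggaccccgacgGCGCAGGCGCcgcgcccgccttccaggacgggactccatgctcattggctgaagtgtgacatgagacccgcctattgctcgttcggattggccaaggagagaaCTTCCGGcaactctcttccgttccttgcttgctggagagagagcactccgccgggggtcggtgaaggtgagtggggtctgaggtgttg
Cox7a1, chr7:30183921-30184220, plus strand: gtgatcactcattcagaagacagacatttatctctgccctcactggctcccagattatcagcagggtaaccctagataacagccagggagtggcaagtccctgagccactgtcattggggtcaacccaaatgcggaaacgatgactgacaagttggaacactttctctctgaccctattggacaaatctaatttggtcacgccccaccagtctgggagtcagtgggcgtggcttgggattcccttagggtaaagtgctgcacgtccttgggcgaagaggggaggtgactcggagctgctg
Cox7a2, chr9:79759804-79760103, minus strand: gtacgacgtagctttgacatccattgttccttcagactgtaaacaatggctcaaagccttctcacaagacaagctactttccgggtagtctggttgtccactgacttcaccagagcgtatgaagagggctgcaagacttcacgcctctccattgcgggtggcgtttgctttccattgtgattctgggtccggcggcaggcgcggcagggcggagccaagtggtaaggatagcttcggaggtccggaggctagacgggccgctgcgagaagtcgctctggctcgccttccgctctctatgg

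Complex II, succinate dehydrogenase, oxidises succinate in the citric acid cycle and hands the electrons to ubiquinone. Its 4 genes had a median log2 fold change of -0.02, with 2 negative and 2 positive. Sdha, the flavoprotein that holds the active site (chromosome 13 from 74322254 to 74350280, minus strand), had 515, 477 and 463 CPM in KO replicates 1 to 3, against 499.6, 488 and 462 CPM in WT replicates 1 to 3. The 6 libraries lay close together, and the spread of log2 CPM over them (SD 0.06) was the smallest of the 42 genes. Its log2 fold change was 0.01, with a 95% interval from -0.27 to 0.28.

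Sdhb, the iron-sulfur subunit that carries electrons away from Sdha (chromosome 4 from 140961203 to 140979193, plus strand), had 343, 281 and 277 CPM in KO replicates 1 to 3, against 319, 342 and 324 CPM in WT replicates 1 to 3. KO replicates 2 and 3 lay below all WT libraries and KO replicate 1 above them. The log2 fold change was -0.13 (SE 0.13, unadjusted p = 0.369 in edgeR). The membrane anchors Sdhc and Sdhd, which bind ubiquinone, had log2 fold changes of -0.05 (SE 0.19) and 0.03 (SE 0.18). Sdhd, with both an NRF1 and a GABPA match in its window, had 246, 171 and 171 CPM in KO replicates 1 to 3, against 208, 189 and 181 CPM in WT replicates 1 to 3, and KO replicate 1 stood above the other 5 libraries. Per kb of transcript, Sdhb was highest at 263 ± 32.6 CPM per kb in KO and 287 ± 10.5 in WT (SD, n = 3 each). Sdhc was lowest at 37.6 ± 5.50 in KO and 39.1 ± 8.25 in WT (SD, n = 3 each). With the length of all exons instead, Sdhd was highest, at 158 CPM per kb over all libraries, against 140 for Sdhb.

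Complex III, the cytochrome bc1 complex, passes electrons from ubiquinol to cytochrome c. Its 9 genes had a median log2 fold change of -0.05, with 7 negative and 2 positive. The catalytic subunits with redox centres did not separate the groups: the log2 fold change was -0.03 (SE 0.16) for Uqcrfs1, the Rieske iron-sulfur protein, and 0.0048 (SE 0.19) for Cyc1, cytochrome c1. Cyc1 had 258, 184 and 209.6 CPM in KO replicates 1 to 3, against 261, 191 and 198 CPM in WT replicates 1 to 3, so that replicate 1 was the highest library in both groups. The core proteins Uqcrc1 and Uqcrc2, which form the matrix-facing part, had log2 fold changes of 0.03 (SE 0.14) and -0.01 (SE 0.14). Uqcrc1, with 2 NRF1 matches just after its start, had 517, 393 and 441 CPM in KO replicates 1 to 3, against 468, 426 and 431 CPM in WT replicates 1 to 3, with the WT libraries inside the KO range.

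Among the small subunits, Uqcrh, the hinge protein that sits beside cytochrome c1 (chromosome 4 from 116066965 to 116075071, minus strand), had 363, 311 and 300.1 CPM in KO replicates 1 to 3, against 342, 337 and 432 CPM in WT replicates 1 to 3. WT replicate 3 was the highest library, and KO replicates 2 and 3 the lowest. Its log2 fold change of -0.19 (SE 0.15) was the most negative of the 42 genes, with an unadjusted p of 0.255 in edgeR. It was -0.065 without WT replicate 3, where Cox7a1, at -0.23, was the most negative. Uqcrb, which contributes to ubiquinone binding (chromosome 13 from 66900617 to 66905378, minus strand), had 192, 130.2 and 122 CPM in KO replicates 1 to 3, against 174, 158 and 156 CPM in WT replicates 1 to 3. KO replicate 1 was the highest library and the other KO libraries the lowest. For Uqcrb the log2 fold change was -0.14 (SE 0.19), and -0.37 without KO replicate 1 (unadjusted p = 0.0282, adjusted p = 0.9998 in edgeR). In that fit Uqcrb and Atp5e were the members at an unadjusted p under 0.05, beside 4.1% of all genes tested. Uqcrq, Uqcr10 and Uqcr11, further small accessory subunits, had log2 fold changes of -0.13, -0.13 and -0.05. Per kb of transcript, Uqcrh was highest at 594 ± 61.4 CPM per kb in KO and 677 ± 97.3 in WT (SD, n = 3 each). Uqcrc2 was lowest at 87.5 ± 12.1 in KO and 88.1 ± 5.30 in WT (SD, n = 3 each). With the length of all exons instead, Uqcr11 (382 CPM per kb over all libraries) and Uqcr10 (320) lay above Uqcrh (281).

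**Figure D2:**
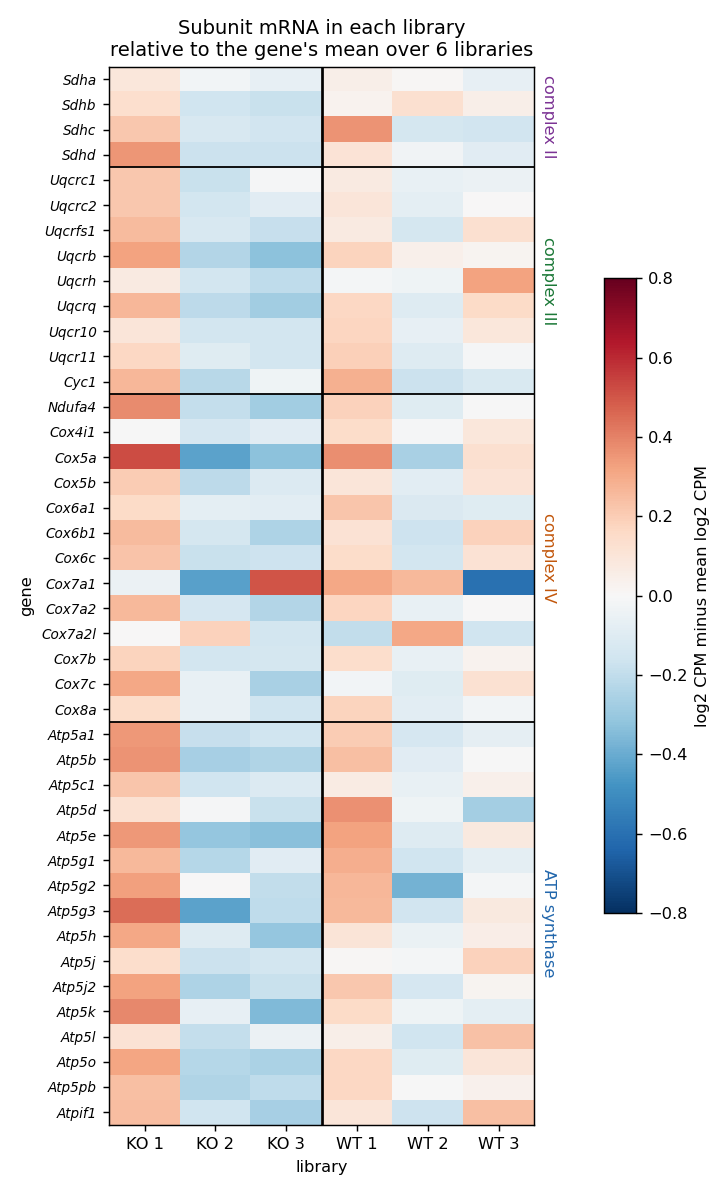
Log2 CPM of each of the 42 genes (rows, by complex) in each of the 6 libraries (columns, KO left of WT), relative to the gene's mean over the libraries. KO replicate 1 and WT replicate 1 are mostly red and KO replicates 2 and 3 mostly blue; Cox7a1 and Cox7a2l depart from this order.

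Complex IV, cytochrome c oxidase, reduces oxygen to water. Its catalytic core is made from mitochondrial DNA, and the 13 nuclear genes encode the subunits around it. Their median log2 fold change was -0.06, with 10 negative and 3 positive. Cox4i1, the largest nuclear subunit, had the highest level per kb of the 42 genes, at 1032 ± 47.9 CPM per kb in KO and 1146 ± 63.2 in WT (SD, n = 3 each). Cox4i1 had 808, 738 and 761 CPM in KO replicates 1 to 3, against 897, 804 and 861 CPM in WT replicates 1 to 3. KO replicate 1 lay just above the library labelled WT replicate 2, and this was the only crossing between the groups. The log2 fold change of Cox4i1 was -0.15 (SE 0.12), with a 95% interval from -0.43 to 0.13 and an unadjusted p of 0.248 in edgeR.

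Cox5a and Cox5b, matrix-side subunits of the assembled enzyme, had log2 fold changes of -0.12 (SE 0.29) and -0.07 (SE 0.15). Cox5a varied more between libraries than any other member but Cox7a1 (SD of log2 CPM 0.40), with 114, 58.8 and 63.0 CPM in KO replicates 1 to 3, against 103, 66.1 and 86.7 CPM in WT replicates 1 to 3. Replicate 1 was the highest library of each group. Cox6a1, Cox6b1 and Cox6c, of which Cox6b1 faces the intermembrane space, had log2 fold changes of -0.01, -0.08 and -0.07. Cox7b, Cox7c and Cox8a, small membrane-spanning subunits, had -0.07, 0.01 and -0.05. Ndufa4, first described in complex I and now counted as a complex IV subunit, had -0.03 (SE 0.20).

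The 3 members of the Cox7a family behaved differently from each other across libraries. Cox7a2, the form found in most tissues (chromosome 9 from 79755361 to 79759878, minus strand), had 190.3, 145 and 135 CPM in KO replicates 1 to 3, against 179, 153 and 159 CPM in WT replicates 1 to 3, with the order seen for most members. Cox7a2l, also called SCAF1, which joins complex III to complex IV in supercomplexes (chromosome 17 from 83501918 to 83517330, minus strand), had 256, 291 and 231 CPM in KO replicates 1 to 3, against 223, 317 and 229 CPM in WT replicates 1 to 3. It was the only member of the 42 with the highest value in the library labelled WT replicate 2, and within each group replicate 2 was the highest library. Cox7a2l had a log2 fold change of 0.02 (SE 0.18). Cox7a1, the form of heart and skeletal muscle fibres (chromosome 7 from 30184144 to 30186078, plus strand), had 1.89, 1.45 and 2.77 CPM in KO replicates 1 to 3, against 2.42, 2.34 and 1.29 CPM in WT replicates 1 to 3. At 5.17 ± 1.71 CPM per kb in KO and 5.13 ± 1.60 in WT (SD, n = 3 each), it was the lowest of the 42 genes per kb.

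**Figure D3:**
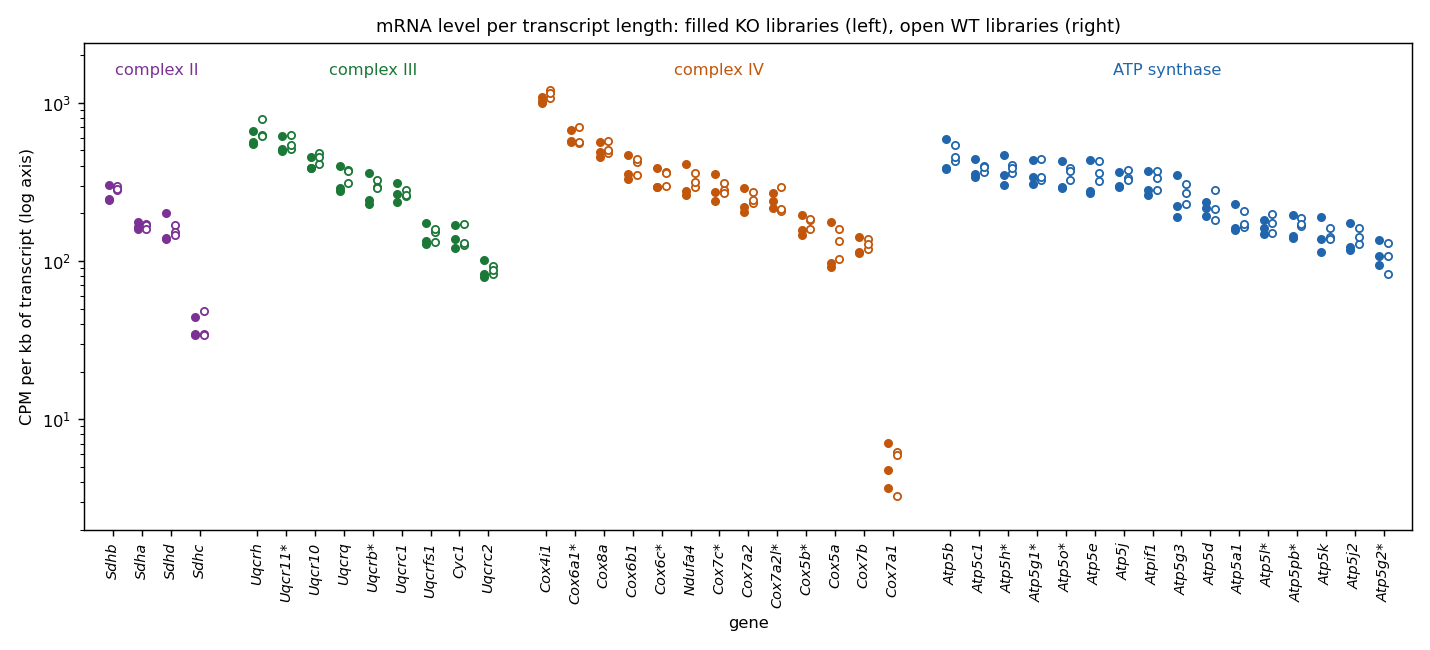
CPM per kb of transcript (log axis) for each gene by complex, with KO libraries as filled points on the left and WT libraries as open points on the right of each pair. Asterisks mark the 13 genes of which at least 10% of 50-base stretches also occur in transcripts of other genes. Cox4i1 is highest and Cox7a1 lowest.

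ATP synthase has a catalytic F1 head, a membrane ring of c subunits that turns with the protons, and a stalk that holds the head still. Its 16 genes had a median log2 fold change of -0.07, with 13 negative and 3 positive. Among the 5 F1 genes, Atp5b, the catalytic beta subunit (chromosome 10 from 128083273 to 128090391, plus strand), had 1129, 732 and 743 CPM in KO replicates 1 to 3, against 1039, 824 and 876 CPM in WT replicates 1 to 3. KO replicate 1 was the highest library and the other KO libraries were the lowest. Its log2 fold change was -0.07 (SE 0.21), and Atp5a1, the alpha subunit that alternates with beta in the head, had 0.02 (SE 0.19). Atp5c1, the gamma subunit of the rotating shaft, had -0.02, and the smaller Atp5d (delta) and Atp5e (epsilon) had -0.06 and -0.17. Atp5e had 183, 116 and 114 CPM in KO replicates 1 to 3, against 179.9, 134 and 152 CPM in WT replicates 1 to 3, and without KO replicate 1 its log2 fold change was -0.43 (unadjusted p = 0.0375, adjusted p = 0.9998 in edgeR).

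The 4 stalk genes were each negative, with log2 fold changes from -0.12 to -0.04: Atp5pb (subunit b) had -0.12, Atp5j (F6) -0.11, Atp5o (OSCP, which ties stalk to head) -0.09 and Atp5h (subunit d) -0.04. Atp5h, with an NRF1 and a GABPA match in its window, had 292, 219 and 189.5 CPM in KO replicates 1 to 3, against 253, 226 and 243 CPM in WT replicates 1 to 3. All 3 WT values lay inside the KO range. Of the membrane genes, Atp5k and Atp5l encode subunits e and g, through which ATP synthase pairs into the dimers of the cristae edge. Atp5k had 70.1, 51.4 and 42.04 CPM in KO replicates 1 to 3, against 59.7, 52.5 and 50.9 CPM in WT replicates 1 to 3, and a log2 fold change of 0.0045 (SE 0.21). Atp5l had -0.08 (SE 0.15) and Atp5j2, subunit f, -0.05 (SE 0.19). Atpif1, the protein that stops ATP synthase from running backwards, had 201, 151 and 141 CPM in KO replicates 1 to 3, against 181, 151 and 199.7 CPM in WT replicates 1 to 3, with overlapping groups and a log2 fold change of -0.11 (SE 0.18).

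Atp5g1, Atp5g2 and Atp5g3 encode the same mature c subunit behind different targeting sequences. Counted per length, Atp5g1 gave 47.2%, 50.8% and 51.7% of the c subunit mRNA in KO replicates 1 to 3, against 50.4%, 50.8% and 47.6% in WT replicates 1 to 3. Its mean share was 49.9% ± 2.38 in KO and 49.6% ± 1.74 in WT (SD, n = 3 each; exact two-sided permutation p = 0.9, adjusted p = 0.9 over 2 shares; the smallest p this design allows is 0.1). Atp5g3 gave 34.4% ± 3.35 in KO and 36.1% ± 1.34 in WT, and Atp5g2 15.7% ± 1.89 in KO and 14.2% ± 1.03 in WT (SD, n = 3 each). Reads that align to more than 1 place were not counted, and 100% of 50-base stretches of Atp5g2 and 66.0% of those of Atp5g1 also occur in transcripts of other genes, so these shares are uncertain. The same limit touches Atp5l (68.5%), Cox7c (53.0%), Atp5h (50.5%), Uqcrb (43.2%) and 7 further members (10.9% to 35.5%), which carry asterisks in the plot of levels per kb.

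The muscle form Cox7a1 gave 1.64%, 1.65% and 3.32% of Cox7a1 plus Cox7a2 per length in KO replicates 1 to 3, against 2.22%, 2.504% and 1.34% in WT replicates 1 to 3. The groups overlapped, with means of 2.20% ± 0.970 in KO and 2.02% ± 0.607 in WT (SD, n = 3 each; exact two-sided permutation p = 0.8, adjusted p = 0.9 over 2 shares). The markers of mature fibres summed to 304, 314 and 529 CPM in KO replicates 1 to 3, against 383, 683 and 303 CPM in WT replicates 1 to 3, and their part in the Cox7a1 share was not tested. Other tissue-restricted forms were also minor. Cox8b, a heart and muscle form, gave 4.36% ± 1.72 of Cox8a plus Cox8b in KO and 3.24% ± 0.808 in WT. Cox6b2, best known from testis, gave 3.70% ± 1.27 of Cox6b1 plus Cox6b2 in KO and 3.94% ± 1.01 in WT. Ndufa4l2 gave 1.52% ± 1.66 of its pair in KO and 1.29% ± 0.724 in WT, the muscle form Cox6a2 gave 0.754% ± 0.322 in KO and 0.659% ± 0.444 in WT, and Cox4i2 gave 0.0867% ± 0.102 in KO and 0.201% ± 0.147 in WT (SD, n = 3 each).

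A share that had no overlap between groups was that of Atp5b in Atp5a1 plus Atp5b, the subunits that alternate in the F1 head. It was 72.0%, 70.7% and 70.7% in KO replicates 1 to 3, against 72.4%, 72.4% and 72.8% in WT replicates 1 to 3. The means were 71.2% ± 0.758 in KO and 72.5% ± 0.208 in WT (SD, n = 3 each), a difference of -1.38 percentage points. This pair was picked out after the values of 11 shares had been seen, and it was not tested. Where groups do not differ, 3 and 3 libraries separate fully with a permutation probability of 0.1 for each share. A separation among 11 shares is therefore near that rate.

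**Figure D4:**
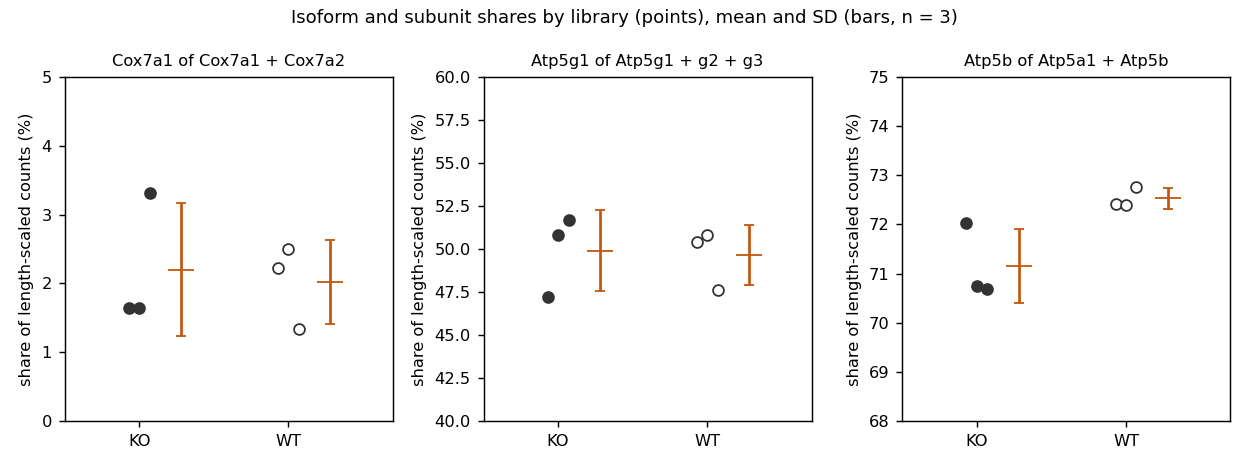
Share of length-scaled counts (%) in each library (points, KO filled and left of WT) with mean and SD (bars, n = 3) for Cox7a1, Atp5g1 and Atp5b within their pairs or family. The vertical axes for Atp5g1 and Atp5b do not start at 0. KO and WT overlap for Cox7a1 and Atp5g1 and do not for Atp5b, at 70.7% to 72.0% in KO and 72.4% to 72.8% in WT.

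The members varied together between libraries more visibly than between groups. The mean log2 CPM of the 42 genes was 7.77, 7.37 and 7.37 in KO replicates 1 to 3, against 7.69, 7.46 and 7.56 in WT replicates 1 to 3. KO replicate 1 was the highest library for 28 of the 42 genes and WT replicate 1 for 9. KO replicate 2 was the lowest for 18 and KO replicate 3 for 17. Over all 18832 genes, KO replicate 1 was the highest for 3398, KO replicate 2 the lowest for 3441 and KO replicate 3 the lowest for 2705. The 36 complex I genes had a similar pattern. There KO replicate 1 was the highest library for 19, KO replicate 2 the lowest for 16 and KO replicate 3 the lowest for 14. In each complex KO replicate 1 had the highest mean and WT replicate 1 the next. ATP synthase genes averaged 7.90, 7.43 and 7.42 log2 CPM in KO replicates 1 to 3, against 7.81, 7.51 and 7.65 in WT replicates 1 to 3. The SD of log2 CPM over the 6 libraries had a median of 0.20 over the members, beside 0.41 over all genes tested.

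Other gene lists also differed between these libraries. The 20 cell cycle genes averaged 5.52, 1.83 and 1.55 log2 CPM in KO replicates 1 to 3, against 4.59, 0.89 and 4.45 in WT replicates 1 to 3, so the libraries with the highest subunit mRNA within each group also had the most cell cycle mRNA. The 16 immediate early genes averaged 7.02, 8.74 and 8.65 in KO replicates 1 to 3, against 7.05, 8.56 and 5.86 in WT replicates 1 to 3. The 12 mitochondrially encoded mRNAs tested averaged 6.73, 7.37 and 7.21 in KO replicates 1 to 3, against 6.93, 7.59 and 6.89 in WT replicates 1 to 3. The lowest KO value was in the library where the nuclear subunits were highest. These mRNAs differed widely in level from each other, and reads that align more than once were not counted, so this mean is uncertain. The part of these differences in the results on the subunits was not tested.

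**Figure D5:**
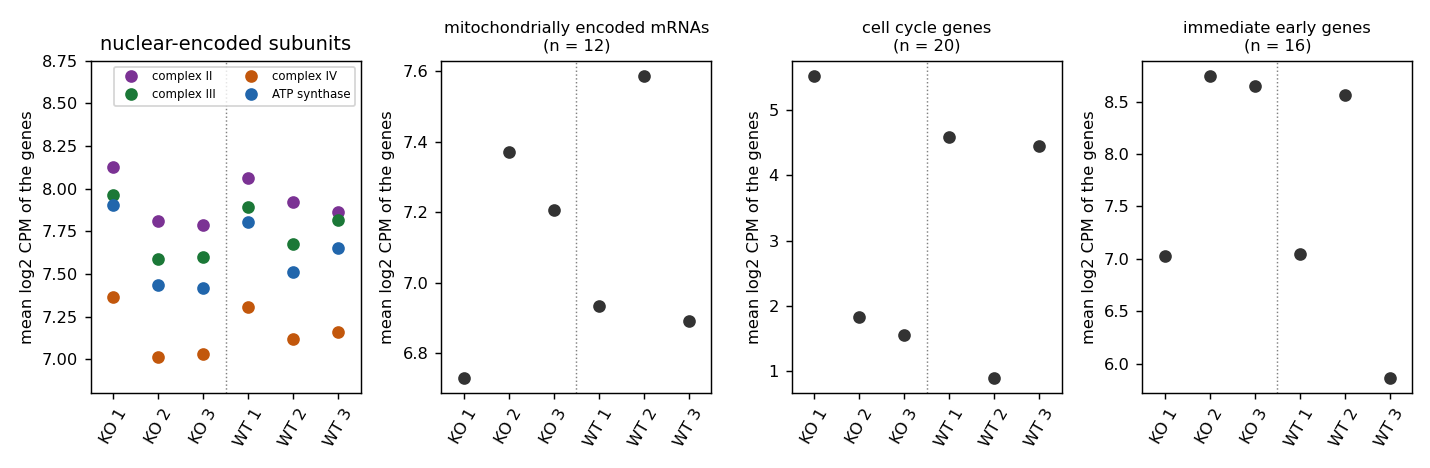
Mean log2 CPM in each library (KO left of WT) of the subunit genes of each complex, of mitochondrially encoded mRNAs, of cell cycle genes and of immediate early genes; the vertical axes differ between panels. KO replicate 1 is highest for each complex, at 7.90 for ATP synthase, and lowest for the mitochondrially encoded mRNAs, at 6.73. The mean of the mitochondrially encoded mRNAs is uncertain, as reads that align more than once were not counted.

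Assembly factors, which build the complexes without staying in them, were tested beside the subunits. Of 40 listed, 39 passed the filter and 0 were called by edgeR, with 22 negative and 17 positive log2 fold changes and a median of -0.08. An unadjusted p under 0.05 was found for 1 of the 39, beside 2.09% of all genes tested. WT replicate 3 was the highest library for 14 of the 39 and KO replicate 1 for 9. That 1 was Cox14, which helps to make the mitochondrially encoded core subunit of complex IV. Cox14 had 123, 130.1 and 126 CPM in KO replicates 1 to 3, against 152, 143 and 177 CPM in WT replicates 1 to 3. All KO libraries lay below all WT libraries, as in 3.12% of all genes tested, with a log2 fold change of -0.32 (SE 0.13, unadjusted p = 0.0441, adjusted p = 0.99998 in edgeR). Tmem70, which helps to form the c ring, had 87.5, 87.3 and 87.3 CPM in KO replicates 1 to 3, against 73.8, 79.6 and 84.1 CPM in WT replicates 1 to 3, with a log2 fold change of 0.14 (SE 0.12). The groups did not overlap and KO was higher, which held for 3.43% of all genes tested. In Lrpprc, an RNA-binding protein of mitochondria named here after its values were seen, KO libraries at 86.5 to 103 CPM also lay above WT libraries at 82.9 to 85.4 CPM. Together, the groups did not overlap in 3 of the 39 assembly factors, near the share of 6.55% over all genes tested. For complex II, Sdhaf2 and Sdhaf4 had log2 fold changes of -0.24 and -0.25, for complex III Uqcc3 and Bcs1l had -0.26 and 0.26, for complex IV Cox18 had -0.37 and for ATP synthase Atpaf2 had 0.18, none at an unadjusted p under 0.05.

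Cytochrome c, encoded by Cycs, which carries electrons from complex III to complex IV, had 102, 54.8 and 48.7 CPM in KO replicates 1 to 3, against 77.7, 66.2 and 75.9 CPM in WT replicates 1 to 3, and a log2 fold change of -0.10 (SE 0.28). The small ATP synthase components Usmg5 and 2010107E04Rik had log2 fold changes of -0.07 and -0.03. Atp5s, which encodes a protein related to coupling factor B, had 26.5, 25.1 and 30.3 CPM in KO replicates 1 to 3, against 25.1, 21.4 and 20.2 CPM in WT replicates 1 to 3, a log2 fold change of 0.30 (SE 0.18, unadjusted p = 0.141 in edgeR). Testis forms Cox7b2, Cox8c and Cyct did not pass the filter and had at most 0.301 CPM in any library.

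The 36 complex I genes listed had a median log2 fold change of -0.10 with 32 negative and 4 positive, and 0 were called. In 6 of the 36 the groups did not overlap, with KO lower each time, beside 3.12% of all genes tested. The 2 with the smallest p were Ndufa2, at 174 ± 10.3 CPM in KO and 201 ± 9.54 CPM in WT, and Ndufs4, at 53.0 ± 3.34 CPM in KO and 61.4 ± 3.92 CPM in WT (SD, n = 3 each), with log2 fold changes of -0.21 (SE 0.12) and -0.21 (SE 0.13). The difference between complex I and the other complexes was not tested. Among 13 transcription factors and coactivators of respiratory genes, 9 log2 fold changes were positive and 4 negative, and 0 were called. Gabpb2, a partner subunit of GABPA, had 39.9, 49.5 and 52.8 CPM in KO replicates 1 to 3, against 38.4, 39.4 and 35.6 CPM in WT replicates 1 to 3, with a log2 fold change of 0.33 (SE 0.16, unadjusted p = 0.0862 in edgeR). Yy1 had 47.3, 51.6 and 42.4 CPM in KO replicates 1 to 3, against 29.5, 41.5 and 39.2 CPM in WT replicates 1 to 3, with a log2 fold change of 0.36 (SE 0.18, unadjusted p = 0.0925 in edgeR). In these 2 of the 13 genes the KO libraries lay above the WT libraries without overlap, beside 3.43% of all genes tested.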

How the data were processed

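Each library came with unnormalized counts of reads per gene, deposited by the authors as whole numbers. The submitters' processing notes list the build GRCm38 and HTSeq 0.6.1p2, STAR 2.6.0c, Trim Galore 0.5.0, cutadapt 2.5, DESeq2 and edgeR. Neither the annotation release nor the use of strand in counting is given in these sources, so a gene cannot be separated from an overlapping or antisense partner. Reads that aligned more than once (14.8% to 24.6% of reads) are not in gene counts, nor were the other summary rows used. Symbols and positions came from GENCODE M21 (49399 of 49652 gene rows matched) and promoter windows from RefSeq (GRCm38.p6).

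KO was compared with WT by edgeR 4.0.16 in R 4.3.3 (quasi-likelihood, robust, TMM, filterByExpr, no covariate), adjusted by Benjamini-Hochberg over 18832 genes, with calls at an adjusted p under 0.05. CPM is after TMM scaling. CPM per kb divides by the length of the principal transcript. The standard error of a log2 fold change is its size divided by the root of the F statistic. Alternatives were DESeq2 1.42.0, limma 3.58.1 voom, other scalings and filters, protein-coding nuclear genes alone, a replicate block and leaving out each library. The script was tested on simulated counts.

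The members and lists were chosen with earlier results of these data known. Beside the members and Opa1, the text names every gene of the list of other isoforms, the 2 genes with the smallest unadjusted p of each other pathway list, the 2 most abundant of each marker list, and a few chosen after their values were seen: the Atp5b share, the genes of mitochondrial DNA encoding subunits of complexes III to V, Ptprc, Lrpprc, Calcr and Col15a1. The depth was 41410136 to 56606886 counts per library, and counting error was not separated from the spread between libraries.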

Additional observations from a re-analysis of the deposited data

How the results depend on the processing

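Across 13 alternatives to the fit reported, edgeR and limma voom called 0 genes, DESeq2 called 20, and 0 of the 42 members were called in any. With a library left out, the median log2 fold change of the 42 members ran from -0.20 to 0.01, that of complex II from -0.18 to 0.058, of complex III from -0.18 to 0.0087, of complex IV from -0.19 to 0.017 and of ATP synthase from -0.23 to 0.0135, so each turned in sign, by moves smaller than the SD between libraries (0.15 to 0.22). For complex II the move of the median came close to that SD. Genes at an unadjusted p under 0.05 numbered 393 of 18832 tested, against 864 of 32237 without the filter. They numbered 614 without the library labelled WT replicate 2, 693 without WT replicate 1 and 818 without KO replicate 1. Without KO replicate 2 there were 324, and without KO replicate 3 or without WT replicate 3 there were 464. With a replicate block edgeR called 0 genes, 515 had an unadjusted p under 0.05, and the members' median was -0.066. Whether the replicate numbers pair the samples is not known. The deviations of same-numbered libraries had correlations of 0.24, 0.11 and -0.07. KO replicates 1 and 2 each correlated best with the WT library of the same number. KO replicate 3 correlated best with the library labelled WT replicate 2 (0.21).

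The sign turned for 7 members with log2 fold changes near 0: Sdha -0.0006, Cyc1 -0.0007 and Atp5k -0.0018 with DESeq2 size factors in edgeR and the same in DESeq2; Sdha -0.0139, Cyc1 -0.0146, Cox7a2l -0.0042, Cox7c -0.0132, Atp5a1 -0.0065 and Atp5k -0.0206 with upper-quartile scaling; Sdha -0.0198, Cyc1 -0.0201, Cox7a1 -0.0101, Cox7a2l -0.0085, Cox7c -0.0142, Atp5a1 -0.0090 and Atp5k -0.0207 with no filter; Sdha -0.0044, Cyc1 -0.0055, Cox7c -0.0027 and Atp5k -0.0092 with protein-coding nuclear genes; Cox7c -0.0044 and Atp5k -0.0240 with the replicate block; Cox7c -0.0070 and Atp5k -0.0313 with limma voom. The cause was not tested.

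With each library left out in turn, the sign held for 13 members and turned for 29. The log2 fold changes of these ran over the following ranges: Sdha -0.040 to 0.036, Sdhc -0.18 to 0.14, Sdhd -0.17 to 0.11, Uqcrc1 -0.081 to 0.10, Uqcrc2 -0.13 to 0.042, Uqcrfs1 -0.18 to 0.050, Uqcr11 -0.15 to 0.039, Cyc1 -0.14 to 0.16, Ndufa4 -0.27 to 0.086, Cox5a -0.48 to 0.041, Cox6a1 -0.093 to 0.11, Cox6b1 -0.25 to 0.013, Cox7a1 -0.28 to 0.19, Cox7a2 -0.22 to 0.034, Cox7a2l -0.091 to 0.20, Cox7c -0.16 to 0.13, Cox8a -0.14 to 0.033, Atp5a1 -0.18 to 0.13, Atp5b -0.31 to 0.031, Atp5c1 -0.15 to 0.031, Atp5d -0.20 to 0.13, Atp5g1 -0.19 to 0.11, Atp5g2 -0.072 to 0.25, Atp5g3 -0.38 to 0.070, Atp5h -0.24 to 0.084, Atp5j2 -0.25 to 0.046, Atp5k -0.22 to 0.16, Atp5l -0.18 to 0.016, Atp5o -0.30 to 0.0079. For the 13 members whose sign held, several came near 0: Sdhb -0.23 to -0.075, Uqcrb -0.37 to -0.015, Uqcrh -0.28 to -0.065, Uqcrq -0.32 to -0.031, Uqcr10 -0.21 to -0.074, Cox4i1 -0.19 to -0.11, Cox5b -0.20 to -0.0063, Cox6c -0.21 to -0.0026, Cox7b -0.18 to -0.013, Atp5e -0.43 to -0.052, Atp5j -0.22 to -0.048, Atp5pb -0.29 to -0.049, Atpif1 -0.28 to -0.010. The KO minus WT difference in the Cox7a1 share ran from -0.381 to 0.462 percentage points and that in the Atp5g1 share from -0.716 to 1.63. Using the length of all exons, chosen after seeing the data, these were 0.188 and 0.374, beside 0.179 and 0.281 as reported; with raw counts they were 0.110 and 0.623.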

Other observations

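The subunits of complexes III, IV and V made from mitochondrial DNA fell into 2 ranges in these counts. mt-Co1 had 2698, 3997 and 4403 CPM in KO replicates 1 to 3, against 3298, 5867 and 4122 CPM in WT replicates 1 to 3, a log2 fold change of -0.26 (SE 0.27, unadjusted p = 0.37 in edgeR), and mt-Cytb 6720, 11552 and 12509 CPM in KO replicates, against 9540, 15234 and 11140 CPM in WT replicates. mt-Co2 had 3.51, 6.46 and 4.16 CPM in KO replicates, against 3.71, 5.34 and 3.55 CPM in WT replicates, mt-Co3 3.79, 5.71 and 3.73 CPM in KO, against 4.05, 5.01 and 3.03 CPM in WT, and mt-Atp6 7.29, 13.6 and 9.69 CPM in KO, against 7.39, 14.3 and 7.59 CPM in WT. mt-Atp8 had 0.743, 1.16 and 1.02 CPM in KO replicates, against 0.654, 0.981 and 0.673 CPM in WT replicates. Reads that align more than once are not counted, and how many came from these genes is not recorded, so their levels are uncertain. mt-Nd6, of complex I, had 297 ± 79.3 CPM in KO and 363 ± 102 CPM in WT (SD, n = 3 each).

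Among cell cycle genes, Mcm3 had 62.5 ± 50.9 CPM in KO and 41.4 ± 19.996 CPM in WT, and Pcna 84.6 ± 49.5 CPM in KO and 66.3 ± 11.6 CPM in WT. Among immediate early genes, Egr2 had 4.86 ± 3.45 CPM in KO and 1.44 ± 1.60 CPM in WT, and Ier3 70.2 ± 44.6 CPM in KO and 26.2 ± 26.9 CPM in WT (SD, n = 3 each). Of the marker lists, endothelial genes (Tek, Pecam1) summed to 106 to 171 CPM in KO and 108 to 182 CPM in WT, smooth muscle and pericyte genes (Acta2, Notch3) to 739 to 1033 CPM in KO and 764 to 1314 CPM in WT, and globin and other red cell genes (Hbb-bs, Hba-a1) to 33.0 to 257 CPM in KO and 99.1 to 422 CPM in WT. The names in brackets are the most abundant genes of each list. So are Dpt and Cd34 in the fibro-adipogenic list and Chodl and Sdc4 in the muscle stem cell list. Acta1 and Actn3 are those of the mature fibre list, and Cd68 and Lyz2 those of the leukocyte list. The endothelial sums were mostly Tek. Over the 8 endothelial genes the mean log2 CPM ran from 2.34 to 3.57 in KO libraries. In WT libraries it ran from 0.698 in WT replicate 3 to 3.72 in the library labelled WT replicate 2. edgeR called 0 genes of all these lists. Those at an unadjusted p under 0.05, named after their values were seen, were Calcr and Col15a1. Calcr, 1 of the 8 genes of the muscle stem cell list, had 190.4 ± 33.1 CPM in KO and 284 ± 60.6 CPM in WT. Col15a1, 1 of the 8 of the fibro-adipogenic list, had 17.6 ± 9.87 CPM in KO and 38.2 ± 15.6 CPM in WT (SD, n = 3 each). Each other list here had 0 such genes, beside 2.09% of all genes tested. The unadjusted p-values in edgeR's quasi-likelihood test were 0.0244 for Calcr and 0.0476 for Col15a1.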
